A study of Capra hircus with 12 samples.

Results

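The genes described here are 76 genes, mostly cytokines, chemokines and their receptors, in the lactating goat mammary gland, out of 4974 genes in the deposited tables. They were chosen by name alone: a gene of any table whose symbol begins with CCL, CCR, CXCL, CXCR, CX3C, IL and a digit, TNF, IFN, CSF or RELT, with 1 matching symbol left out by the same rule. By role they comprised 19 chemokine ligands, 8 chemokine receptors, 10 interleukins, 2 interleukin antagonists or binding proteins and 14 interleukin receptor chains. There were also 6 TNF superfamily ligands, 7 TNF receptors, 2 interferon receptor chains and 3 colony stimulating factors or receptors. The rest were 4 proteins with TNFAIP symbols, which are neither cytokine nor receptor, and 1 gene that the pattern takes in by spelling. That gene is CCRN4L (nocturnin), a circadian protein that is no cytokine. All 76 gene identifiers were found in the NCBI RefSeq list for the ARS1.2 goat assembly, where 10 carry only a placeholder symbol, among them CCL2, CCR1 and CCR2, and IL8 is listed there as CXCL8.

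RNA was sequenced from mammary biopsies of Majorera and Palmera goats, both dairy breeds of the Canary Islands, to ask how each responds to the loss of weight that follows poor feeding. All goats were at peak lactation, and the biopsies were taken at the end of the feeding trial. The 4 groups were Majorera control (MC), Majorera restricted (ME), Palmera control (PC) and Palmera restricted (PE), with 3 goats, and so 3 libraries, in each. Control goats received a diet that met the needs of lactation, whereas restricted goats received wheat straw with a vitamin and mineral supplement. Control goats shared one pen and restricted goats another, and the effects of pen and of feeding cannot be told apart. The goats sampled were drawn at random from each group, and all had had the same number of lactations.

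Chemokines are small secreted proteins that draw leukocytes along a gradient, and each leukocyte type answers through the chemokine receptors it carries. Interleukins, TNF superfamily ligands, interferons and colony stimulating factors set the growth, survival and activity of immune cells through their own receptors, and antagonists such as IL1RN limit the signal. In the mammary gland these molecules are known from mastitis, from the transfer of antibody-secreting cells into the gland, and from involution, when milk stasis is followed by the entry of macrophages and neutrophils and by removal of the secretory epithelium.

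Levels are given as CPM, the expected count per 1000000 of a library's mapped reads after TMM scaling, which gave 28300000 to 83700000 effective reads per library. CPM is not divided by gene length, so levels are compared between libraries and never between genes. Each deposited table held only genes whose unadjusted p was below 0.05 in the authors' own test of that pair of groups. A gene therefore has counts for the groups of the tables it entered: 23 members had all 12 libraries, 32 had 9 and 21 had 6. For this reason a share of members that passes a threshold is printed with the same share over all genes of the table, since those genes too were there because they differed. Counts with 1 library left out, and calls by adjusted p with the replicate block, are given without that share. Members were called at an adjusted p below 0.05 in edgeR's quasi-likelihood test, and differentially expressed genes (DEG) also needed an absolute log2 fold change (log2FC) above 1.5 and more than 100 counts in a library. These calls come from a new fit and differ from those of the study. The study's own edgeR test listed CXCR4 as up-regulated in ME, IL6R as up-regulated in PC against MC, and RELT as down-regulated in PE. The study states that its edgeR outputs were also limited by log2FC. With small differences missing, the median log2FC of a table depends on the share of genes that were higher. Over all genes it was 0.557 in PC vs. PE (50.8% higher) and -0.555 in MC vs. PE (45.2% higher). Of the 76 members, 48 passed the count minimum, 4 stayed under 10 counts in every library, and 15 had a library at 0. In bulk tissue, fewer cells of a type and less RNA per cell cannot be told apart.

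Feed restriction, tested over both breeds in the 23 members with 12 libraries, raised 6 of them at an adjusted p below 0.05 and lowered none. The background was 30.9% of the 1408 genes with 12 libraries called in either direction and 16.1% called as higher, against 26.1% of the members, all of them higher. Among the 6 were the chemokine receptor CXCR4, the chemokine CXCL16, the receptor chain IL10RA, the TNF ligand TNFSF8 and the TNFAIP8 family protein TNFAIP8L2. By sign alone, 18 of the 23 members were higher in restricted goats (background 51.6%), with a median log2FC of 1.08 against 0.21 over all 1408 genes. An unadjusted p below 0.05 was reached by 17 members (background 75.6%). Only CXCR4 was also a DEG (background 5.97%). The DESeq2 Wald test on the same counts called 9 members (background 41.5%), namely the same 6 with IL7R, IL16 and TNFRSF19. Without ME replicate 2, a library that stood apart, edgeR called 4 members (CXCL16, CXCR4, IL10RA and TNFSF8), none of them a DEG, and the median log2FC was 0.87. The share over all genes is not given for this setting.

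CXCR4 is the receptor of CXCL12 and is carried by most leukocytes. Its level was 1.96, 1.2 and 2.12 CPM in MC replicates 1, 2 and 3 and 4.02, 8.04 and 6.10 CPM in ME. In the Palmera goats it was 1.69, 2.16 and 1.42 CPM in PC and 3.62, 6.33 and 4.23 CPM in PE. All 6 restricted libraries lay above all 6 controls, and the gap held within each breed. Of the 23 members, CXCR4 and CXCL16 were the 2 whose libraries separated completely by diet (background 18.5%). The CXCR4 difference was 3.04-fold over both breeds (log2FC 1.60, SE 0.22, adjusted p = 0.00513). It was called with any 1 of the 12 libraries left out, but its log2FC dropped to 1.49 without MC replicate 2 and to 1.47 without ME replicate 2, below the DEG minimum. Within the breeds it was 3.45-fold higher in ME than in MC (log2FC 1.79, SE 0.32, adjusted p = 0.125) and 2.68-fold higher in PE than in PC (log2FC 1.42, SE 0.28, adjusted p = 0.0844), and DESeq2 called both (adjusted p = 0.00226 and 0.0118). The breed by diet term was -0.37 on the log2 scale (SE 0.44, adjusted p = 1.000), and MC and PC were at 1.76 ± 0.49 and 1.75 ± 0.38 CPM (SD, n = 3).

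**Figure D1:**
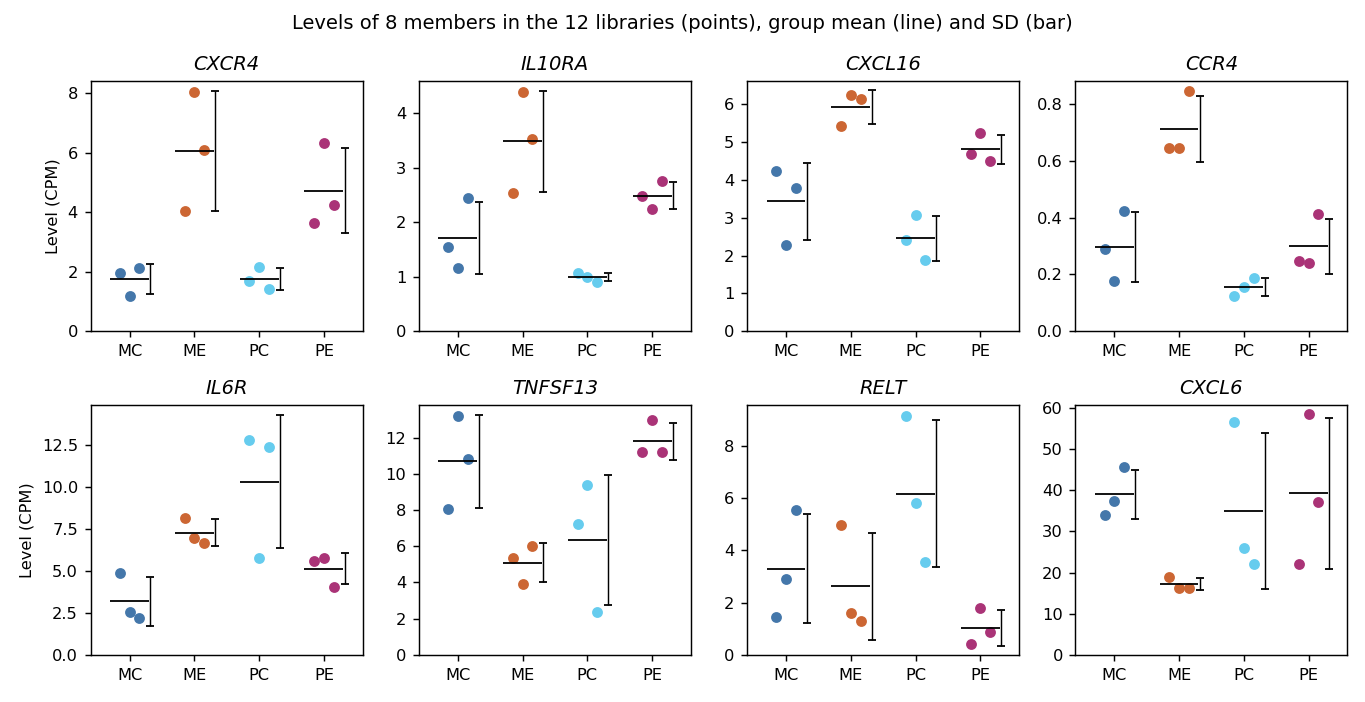
Levels in CPM of CXCR4, IL10RA, CXCL16, CCR4, IL6R, TNFSF13, RELT and CXCL6 in each of the 12 libraries by group, each point being 1 goat, each line the group mean and each bar its SD (n = 3). CXCR4 lay between 1.2 and 2.16 CPM in the controls and between 3.62 and 8.04 CPM in the restricted goats, whereas IL6R and TNFSF13 shifted in opposite directions in the 2 breeds.

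CXCL16 is a membrane-bound chemokine of macrophages and epithelium that binds CXCR6. It stood at 4.24, 2.29 and 3.78 CPM in MC, 5.41, 6.25 and 6.14 CPM in ME, 2.41, 3.07 and 1.89 CPM in PC, and 4.68, 5.24 and 4.49 CPM in PE. The restricted libraries were again all above the controls, by a narrow margin of MC replicate 1 to PE replicate 3. The difference over both breeds was 1.84-fold (log2FC 0.88, SE 0.16, adjusted p = 0.0133), and the call held without each of the 12 libraries in turn. Its receptor CXCR6, which entered only the PC vs. PE table, was at 0.31, 0.41 and 0.41 CPM in PC and 0.67, 0.61 and 2.17 CPM in PE, with an adjusted p of 0.183 for a log2FC of 1.64.

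Other chemokine receptors with 12 libraries included CCR1, CCR2 and CCR4, which had a positive log2FC for restriction. CCR4, which marks helper and regulatory T cells, ran from 0.18 to 0.42 CPM in MC, 0.64 to 0.84 CPM in ME, 0.13 to 0.19 CPM in PC and 0.24 to 0.41 CPM in PE, and was not called (log2FC 1.12, adjusted p = 0.0547). CCR1 and CCR2, receptors of monocytes, were not called (adjusted p = 0.242 and 0.430 in MC vs. ME, and 1.000 for both in the interaction). CCR2 was 0.22, 1.08 and 0.91 CPM in ME against 0.26 to 0.32 CPM in MC, so that ME replicate 1 lay below every MC library, and it lay between 0.18 and 0.41 CPM in all Palmera libraries. CCR1 reached 3.27 CPM in ME replicate 2 and 0.28 to 1.60 CPM in the other 11 libraries. Part of the CCR1 counts were fractional, meaning reads shared with a similar sequence, so its values are uncertain.

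CX3CR1 and CCR9 had values in fewer groups. CX3CR1, the fractalkine receptor of macrophages and cytotoxic lymphocytes, was at 1.13 to 2.05 CPM in MC, 2.39 to 5.27 CPM in ME and 1.64 to 2.41 CPM in PC. CCR9, which guides lymphocytes to the gut, went the other way in Palmera, from 0.16, 0.16 and 0.25 CPM in PC to 0.04, 0 and 0.02 CPM in PE (log2FC -2.89, adjusted p = 0.106). A count of 0 in a library of this depth shows only that the transcript was not detected. CXCR6 and CCR9 are next to each other in the gene order of ARS1.2, and they differed in sign in PC vs. PE.

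Among the chemokine ligands, those that draw neutrophils did not move together. CXCL6 was 34.1, 37.3 and 45.5 CPM in MC and 18.9, 16.3 and 16.3 CPM in ME, so that after TMM scaling all ME libraries lay below all MC libraries. By mapped reads alone the groups overlapped, because ME replicate 2 then lay above MC replicates 1 and 2. The log2FC was -1.18 (SE 0.19, adjusted p = 0.115 by edgeR and 1.22e-05 by DESeq2). In Palmera the libraries of CXCL6 were scattered, at 56.7, 25.8 and 22.1 CPM in PC and 22.0, 58.6 and 37.0 CPM in PE. CXCL1 was 0.07, 0.27 and 0.09 CPM in PC and 0.85, 0.48 and 0.79 CPM in PE (log2FC 2.26, adjusted p = 0.102), and 0.09 to 0.37 CPM in MC. In 9 of its 9 libraries the CXCL1 count was fractional, so it may hold reads of a paralogue. IL8 (CXCL8), the main neutrophil attractant, measured 0.13, 0.21 and 0 CPM in MC, 0.12, 0.96 and 0.80 CPM in ME and 0.47, 0.24 and 0.94 CPM in PE.

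Of the chemokines that act on monocytes and lymphocytes, several were carried by single libraries. CCL23, a CCR1 ligand, was 1.44, 0.88 and 0.72 CPM in PC and 7.26, 1.53 and 3.57 CPM in PE, with a log2FC of 2.03 (adjusted p = 0.123), and it became a DEG without PE replicate 2. In Majorera it overlapped, with 1.34 to 2.05 CPM in MC and 1.32 to 2.46 CPM in ME. CCL24, an eotaxin, stood at 2.97 CPM in ME replicate 2 and 0.17 and 0.13 CPM in the other ME libraries, so that the sign of its diet effect changed with the libraries used. Its log2FC in ME vs. PE was -2.56 with all libraries and 0.34 without ME replicate 2. CCL19, a ligand of CCR7 on dendritic cells and naive T cells, was likewise 4.42 CPM in ME replicate 2 against 0.32 and 1.01 CPM in the others of ME. CCL8 and CCL26 were lower in PC than in MC, with 0.99, 0.56 and 4.24 CPM against 0.44, 0.59 and 0.19 CPM for CCL8, and 0.99, 1.06 and 0.60 CPM against 0.34, 0.59 and 0.16 CPM for CCL26. Neither was called (adjusted p = 0.738 and 0.775), and the CCL8 values overlapped.

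CCL28, the mucosal chemokine that draws IgA-secreting cells to the lactating gland, lay between 14.1 and 23.7 CPM in MC, between 12.3 and 21.4 CPM in PC and between 8.32 and 13.9 CPM in PE. Its log2FC was -0.70 in PC vs. PE and -0.76 in MC vs. PE, with an adjusted p of 0.241 and 0.216. The remaining chemokines were CCL2, CCL4, CCL5, CCL14, CCL16, CCL20, CCL21, CCL25 and CXCL11. CCL2, the main monocyte attractant, was 5.78 CPM in ME replicate 2, between 0.14 and 1.03 CPM in MC, 0.42 and 0.65 CPM in the other ME libraries and between 0.20 and 1.12 CPM in PE. Without ME replicate 2 its log2FC went from 2.03 to -0.08 in MC vs. ME and from -1.64 to 0.48 in ME vs. PE. CCL14, a CCR1 ligand, lay at 10.4 to 14.7 CPM in MC, 18.0 to 24.9 CPM in ME and 8.29 to 14.5 CPM in PC. CCL16 had the opposite sign in Majorera, at 0.28 to 0.51 CPM in MC and 0.06 to 0.20 CPM in ME, and was not called (log2FC -1.39, adjusted p = 0.302). CCL21, a CCR7 ligand like CCL19, was 2.98 to 9.21 CPM in ME and at most 3.57 CPM in PC. CCL25, the ligand of CCR9, and CXCL11, an interferon-induced ligand of CXCR3, were at or below 0.56 CPM wherever they had values. CCL4 and CCL5, which draw T cells and macrophages, had higher means in ME than in MC (log2FC 1.2 and 0.97). CCL5 overlapped, because MC replicate 3 at 3.67 CPM lay above ME replicate 3 at 3.61 CPM. CCL20, the CCR6 ligand, had 1, 12 and 0 counts in ME and none in PE (adjusted p = 1.000), so that all but 1 of its counts came from ME replicate 2.

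Among the interleukin receptors, only IL10RA was called. It is the ligand-binding chain through which IL10 restrains macrophages and T cells. Levels were 1.54, 1.16 and 2.44 CPM in MC, 2.53, 4.40 and 3.53 CPM in ME, 1.06, 1.00 and 0.91 CPM in PC, and 2.47, 2.25 and 2.75 CPM in PE. PE replicate 2 lay below MC replicate 3, and within each breed the diets did not overlap. The log2FC over both breeds was 1.17 (2.26-fold, SE 0.20, adjusted p = 0.00936), and this call too held without each library in turn. In PC vs. PE the log2FC was 1.33 (adjusted p = 0.0764 by edgeR and 0.0162 by DESeq2), and in MC vs. ME 1.03 (adjusted p = 0.250). IL10 itself had 0.07, 0.32 and 0.19 CPM in ME and 0.06, 0.06 and 0 CPM in PC, and IL10RB, the shared second chain, 2.66 to 4.66 CPM in ME, 2.06 to 2.33 CPM in PC and 1.74 to 2.62 CPM in PE.

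IL6R, the ligand-binding chain for IL6, had a higher mean in PC than in MC but a lower mean in PE than in ME. Its log2FC for restriction had opposite signs in the breeds, and none of these differences was called by edgeR. It was 4.88, 2.53 and 2.19 CPM in MC and 8.20, 6.99 and 6.67 CPM in ME, without overlap. In Palmera it was 12.8, 5.76 and 12.4 CPM in PC and 5.58, 5.79 and 4.08 CPM in PE, where PC replicate 2 lay inside the PE range. The log2FC was 1.18 in MC vs. ME (SE 0.31, adjusted p = 0.186) and -1.01 in PC vs. PE (SE 0.31, adjusted p = 0.159). The interaction was -2.19 (SE 0.47, adjusted p = 0.735 by edgeR and 0.0803 by DESeq2), so the difference between breeds in this response did not pass the test. Between the controls, PC exceeded MC 3.22-fold (log2FC 1.69, SE 0.38, adjusted p = 0.585).

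IL7R, the receptor of a lymphocyte survival factor, was 1.12, 0.74 and 1.31 CPM in MC, 1.66, 2.57 and 3.10 CPM in ME, 0.84, 1.25 and 0.57 CPM in PC, and 0.90, 1.80 and 2.45 CPM in PE. Its diet log2FC of 1.08 was not called by edgeR (adjusted p = 0.0564) and was by DESeq2 (adjusted p = 0.0238). IL1R1, the signalling receptor of IL1, was lower in PE, at 12.3, 10.2 and 13.5 CPM, than in PC at 16.1, 25.1 and 25.0 CPM (log2FC -0.88, adjusted p = 0.120), whereas MC and ME overlapped at 18.3 to 22.9 and 16.1 to 19.3 CPM. The IL1 antagonist IL1RN had its highest value, 2.28 CPM, in ME replicate 2, and 0.18 to 1.14 CPM elsewhere. IL18R1 and IL18RAP, the chains of the IL18 receptor, both stood at 0, 0 and 0.07 CPM in MC, against 0.27, 0.14 and 0.24 CPM for IL18R1 in PE and 0.12 to 0.16 CPM for IL18RAP in ME. The MC count was 2 in each case, so these differences rest on few reads. The rest of the receptor chains had values in 6 or 9 libraries. IL2RG, the common gamma chain of lymphocyte receptors, was 5.49 to 10.9 CPM in ME, at most 4.72 CPM in MC and at most 5.47 CPM in PC, and IL2RA, the IL2 receptor chain of activated and regulatory T cells, was highest in ME replicate 2 at 0.98 CPM. IL13RA1 lay between 9.59 and 18.9 CPM in ME and between 8.07 and 10.3 CPM in PE. IL17RE, an epithelial receptor of IL17C, was 2.40 to 3.62 CPM in PE against 1.44 to 2.10 CPM in PC and 1.25 to 2.11 CPM in ME. IL20RA was 0.03 to 0.09 CPM in PC and 0.19 to 0.37 CPM in PE. IL5RA was at 0 in all PC libraries and had 0, 5 and 6 counts in ME (adjusted p = 0.385). IL22RA1, the epithelial receptor chain of IL22, was at 0.09, 0.09 and 0.19 CPM in PC and at most 0.06 CPM in ME and PE.

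IL16, an attractant for CD4 T cells, was the 1 interleukin with 12 libraries. It ran at 1.89, 0.88 and 2.54 CPM in MC, 2.61, 4.28 and 2.66 CPM in ME, 1.22, 1.38 and 1.2 CPM in PC, and 2.37, 2.31 and 2.17 CPM in PE. The log2FC was 0.85 in each breed, with an interaction of 0.00 (SE 0.40), and the diet effect over both breeds had an adjusted p of 0.0589 by edgeR and 0.0257 by DESeq2. IL18, an inflammasome product of macrophages and epithelium, measured 4.20, 3.52 and 1.84 CPM in MC, 0.94, 2.22 and 1.75 CPM in ME and 1.25, 1.43 and 1.27 CPM in PE. The MC vs. ME log2FC of -0.94 (adjusted p = 0.442) became 0.00 with mapped reads alone. IL18BP, which binds and blocks IL18, spanned 12.5, 4.44 and 1.04 CPM in PC against 1.39, 1.29 and 2.88 CPM in PE. IL34, a ligand of the CSF1 receptor, was 2.38 to 3.15 CPM in PC and 1.27 to 1.87 CPM in PE, and IL15, which sustains NK cells, was 0.84 to 2.48 CPM in PC and 0.53 to 0.71 CPM in PE, both without overlap. IL17B overlapped, at 0.28 to 0.72 CPM in PC and 0.55 to 2.19 CPM in PE. IL1B had 0.07 to 0.26 CPM in MC, 0.21 to 0.97 CPM in ME and 0.33 to 0.68 CPM in PE. IL33, an alarmin of epithelium and stroma, was 5.78 to 8.91 CPM in ME, at most 4.69 CPM in PC and at most 4.66 CPM in PE. IL24 and IL7 completed the group, with IL7 at 0.61 CPM in ME replicate 2 and at most 0.17 CPM elsewhere.

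TNFSF13 (APRIL), a survival factor for plasma cells, shifted in opposite directions in the breeds. It was 8.09, 13.2 and 10.8 CPM in MC and 5.36, 3.93 and 6.02 CPM in ME, and 7.26, 9.38 and 2.39 CPM in PC and 11.2, 13.0 and 11.2 CPM in PE. After TMM scaling, the controls and restricted goats did not overlap in either breed, being lower in ME and higher in PE. By mapped reads alone, they overlapped in both breeds. The log2FC was -1.07 (SE 0.24, adjusted p = 0.160) in MC vs. ME and 0.89 (SE 0.40, adjusted p = 0.349) in PC vs. PE, with an interaction of 1.96 (SE 0.52, adjusted p = 1.000). ME and PE differed 2.32-fold (log2FC 1.21, SE 0.19, adjusted p = 0.390 by edgeR and 0.00127 by DESeq2). TNFSF12 (TWEAK), the neighbouring gene, lay at 3.43 to 6.41 CPM in ME and 2.52 to 2.97 CPM in PC. The receptors of TNFSF13 and of the related factor BAFF had fewer values. TNFRSF17 (BCMA), of plasma cells, was 0.22 to 0.28 CPM in PC and 0.45 to 1.14 CPM in PE, and TNFRSF13C, the BAFF receptor of B cells, was 0.07 to 0.11 CPM in MC and 0.30 to 0.38 CPM in ME, with 1 fractional count.

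RELT, a TNF receptor of lymphoid tissue, was the 1 member that DESeq2 called as lower in PC vs. PE. It was 9.13, 5.82 and 3.55 CPM in PC and 0.43, 1.80 and 0.86 CPM in PE, without overlap. The difference was 6.20-fold (log2FC -2.63, SE 0.51, adjusted p = 0.0815 by edgeR and 0.000531 by DESeq2). In Majorera it was 1.44, 2.92 and 5.54 CPM in MC and 4.97, 1.59 and 1.31 CPM in ME, which overlapped, and RELT did not enter the MC vs. ME table. The interaction of -2.28 (SE 0.89, adjusted p = 1.000) was not called. Over both breeds the log2FC was -1.45 (adjusted p = 0.315), and without ME replicate 1 RELT was called, with an adjusted p of 0.0358.

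TNFSF8 (CD30 ligand), made by activated T cells, was 0.77, 0.91 and 0.64 CPM in MC, 2.11, 1.43 and 2.09 CPM in ME, 0.59, 0.84 and 0.94 CPM in PC, and 0.86, 1.57 and 2.08 CPM in PE. PE replicate 1 lay inside the control range. TNFAIP8L2 (TIPE2), which dampens immune cell activation, was 0.56 to 1.12 CPM in MC, 1.19 to 3.11 CPM in ME, 0.47 to 0.53 CPM in PC and 0.85 to 1.95 CPM in PE. Both rose with restriction (log2FC 1.09 and 1.30, adjusted p = 0.0315 and 0.0338), but the TNFSF8 call was lost without 8 of the 12 libraries and the TNFAIP8L2 call without 7. TNFRSF1B, the TNF receptor of leukocytes, was highest in ME replicate 2 at 22.7 CPM, with 5.87 to 13.0 CPM elsewhere, and its counts were fractional in 11 of 12 libraries. TNFRSF19 (TROY), an epithelial and stromal receptor, had 0.03, 0 and 0.03 CPM in PC and 0.08, 0.54 and 0.71 CPM in PE, a log2FC of 4.20 on very few reads. TNFAIP3 (A20), which switches off NF-kappa B, was 2.92, 2.18 and 2.15 CPM in MC, 3.30, 5.73 and 6.38 CPM in ME and 1.82 to 2.72 CPM in PC. TNFSF11 (RANKL), which drives alveolar development of the mammary gland, was 0.16, 0.03 and 0 CPM in PC and 0.67, 0.17 and 0.17 CPM in PE (log2FC 2.42, adjusted p = 0.237). TNFSF10 (TRAIL), a death ligand, was 1.13 to 3.11 CPM in PC and 0.71 to 1.16 CPM in PE, which overlapped slightly. TNFSF4 (OX40 ligand) was 0.17 to 0.29 CPM in ME and at most 0.11 CPM in MC and PC. TNFRSF18 (GITR) and the decoy receptor TNFRSF6B peaked in ME replicate 2, at 1.66 and 2.51 CPM, and without it the log2FC of TNFRSF6B in ME vs. PE went from -1.88 to 0.20. TNFAIP1 was 12.2 to 20.1 CPM in PC and 8.06 to 11.2 CPM in ME, and TNFAIP8L3 was 2.46 CPM in ME replicate 2 and 0.50 to 0.93 CPM elsewhere.

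The colony stimulating factor genes were CSF1, CSF2RB and CSF3R, and the interferon receptor chains IFNAR2 and IFNGR1. CSF3R, the G-CSF receptor of neutrophils, was 8.83, 0.68 and 6.98 CPM in PE against 2.00, 0.31 and 0.85 CPM in PC, so that PE replicate 2 lay within the PC range. CSF2RB, the beta chain shared by the GM-CSF, IL3 and IL5 receptors, was 256, 342 and 294 CPM in MC and 636, 430 and 600 CPM in PE (log2FC 0.90, adjusted p = 0.153 by edgeR and 0.0244 by DESeq2), without overlap. CSF1, the macrophage growth factor, was 1.16 to 2.35 CPM in PC, 2.45 to 3.61 CPM in PE and 2.86 to 5.30 CPM in ME. IFNAR2, of the type I interferon receptor, was 2.73 to 4.87 CPM in ME, 1.86 to 2.60 CPM in MC and 1.69 to 2.30 CPM in PC. IFNGR1, of the interferon gamma receptor, reached 15.5 CPM in ME replicate 2 and lay at 3.63 to 4.44 CPM in PC and 4.68 to 5.92 CPM in PE. CCRN4L was 1.10 to 2.09 CPM in ME and 0.31 to 1.31 CPM in PC.

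**Figure D2:**
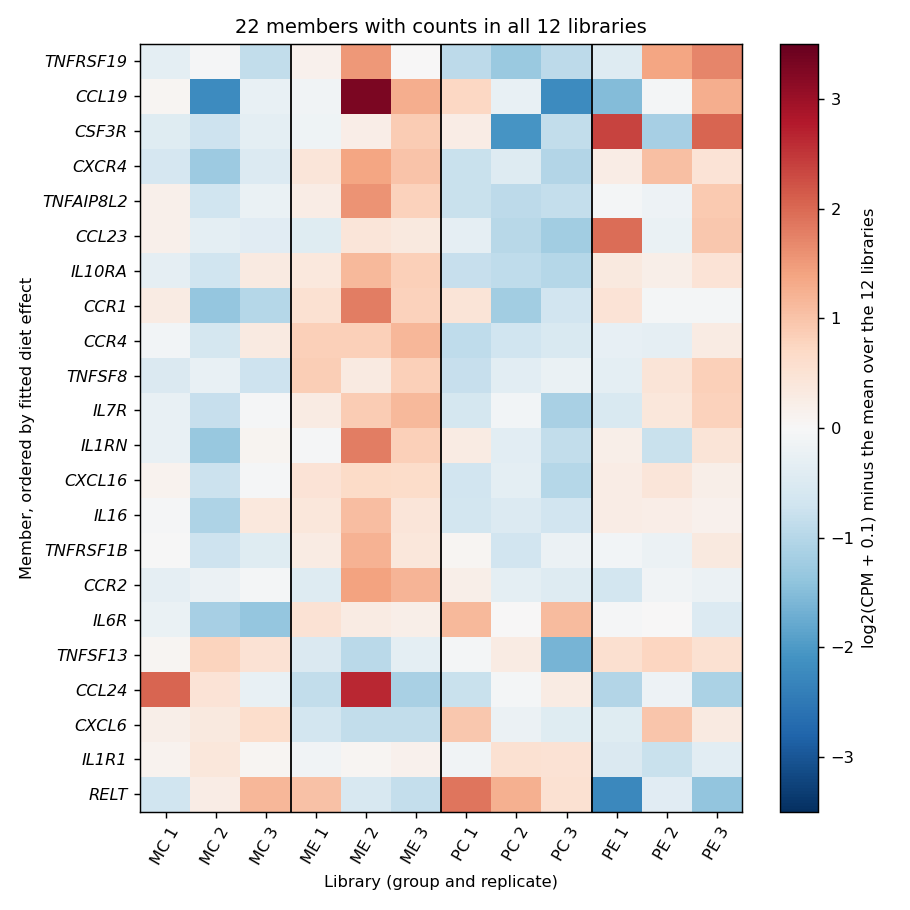
Level of 22 members with 12 libraries, as log2(CPM + 0.1) minus its own mean over the 12 libraries, by library (columns, by group and replicate) and gene (rows, ordered by diet effect). ME replicate 2 was the highest library of 11 of the 22 members shown.

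Considered pair by pair, the members were mostly higher in restricted Majorera goats. Of 35 members in the MC vs. ME table, 31 were higher in ME (background 52.2%), with a median log2FC of 1.21 against 0.66 over the 1779 genes. The groups did not overlap in 25 of the 35 (background 70.6%). All 6 chemokine receptors and all 6 interleukin receptors of the table were higher in ME. The 4 lower members were CXCL6, TNFSF13, CCL16 and IL18. Without ME replicate 2, 30 of the 35 were higher, with a median log2FC of 0.93. No member was called by edgeR (background 0.337%), while 32 had an unadjusted p below 0.05 (background 86.1%), and DESeq2 called CXCL6, CXCR4 and TNFSF13 (background 12.9%), of which CXCR4 met the DEG rule (background 4.61%). Scaling by mapped reads alone moved the median of all genes of this table by 0.88, from 0.66 to 1.54, and the members' median from 1.21 to 2.09, and IL18 was then not lower. The share of all genes higher in ME became 68.5%, against 32 of 35 members. The same scaling moved the median of all genes by -0.04 in PC vs. PE, 0.36 in MC vs. PC, 0.30 in MC vs. PE, -0.56 in ME vs. PC and 0.43 in the diet effect over both breeds, where CCL24 and TNFSF13 changed sign.

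In PC vs. PE, 20 of 32 members were higher in PE (background 50.8%), with a median log2FC of 0.90 against 0.56. There was no overlap in 23 of the 32 (background 73.2%). Neither edgeR (no member, background 0.0442%) nor the DEG rule gave a call, although 31 members had an unadjusted p below 0.05 (background 92.9%), and DESeq2 called RELT, IL10RA, CXCR4 and CCL23 (background 9.86%), of which RELT and CCL23 met the DEG rule (background 3.85%). Without PE replicate 2, RELT and CCL23 were called by edgeR (share over all genes not given). The 2 breeds shared 11 members between these tables. Of these, 9 were higher under restriction in both (background 47.7% of 616 genes) and none was lower in both, while IL6R and TNFSF13 changed sign between breeds. The signs matched in 81.8% of the members and 95.5% of the genes.

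**Figure D3:**
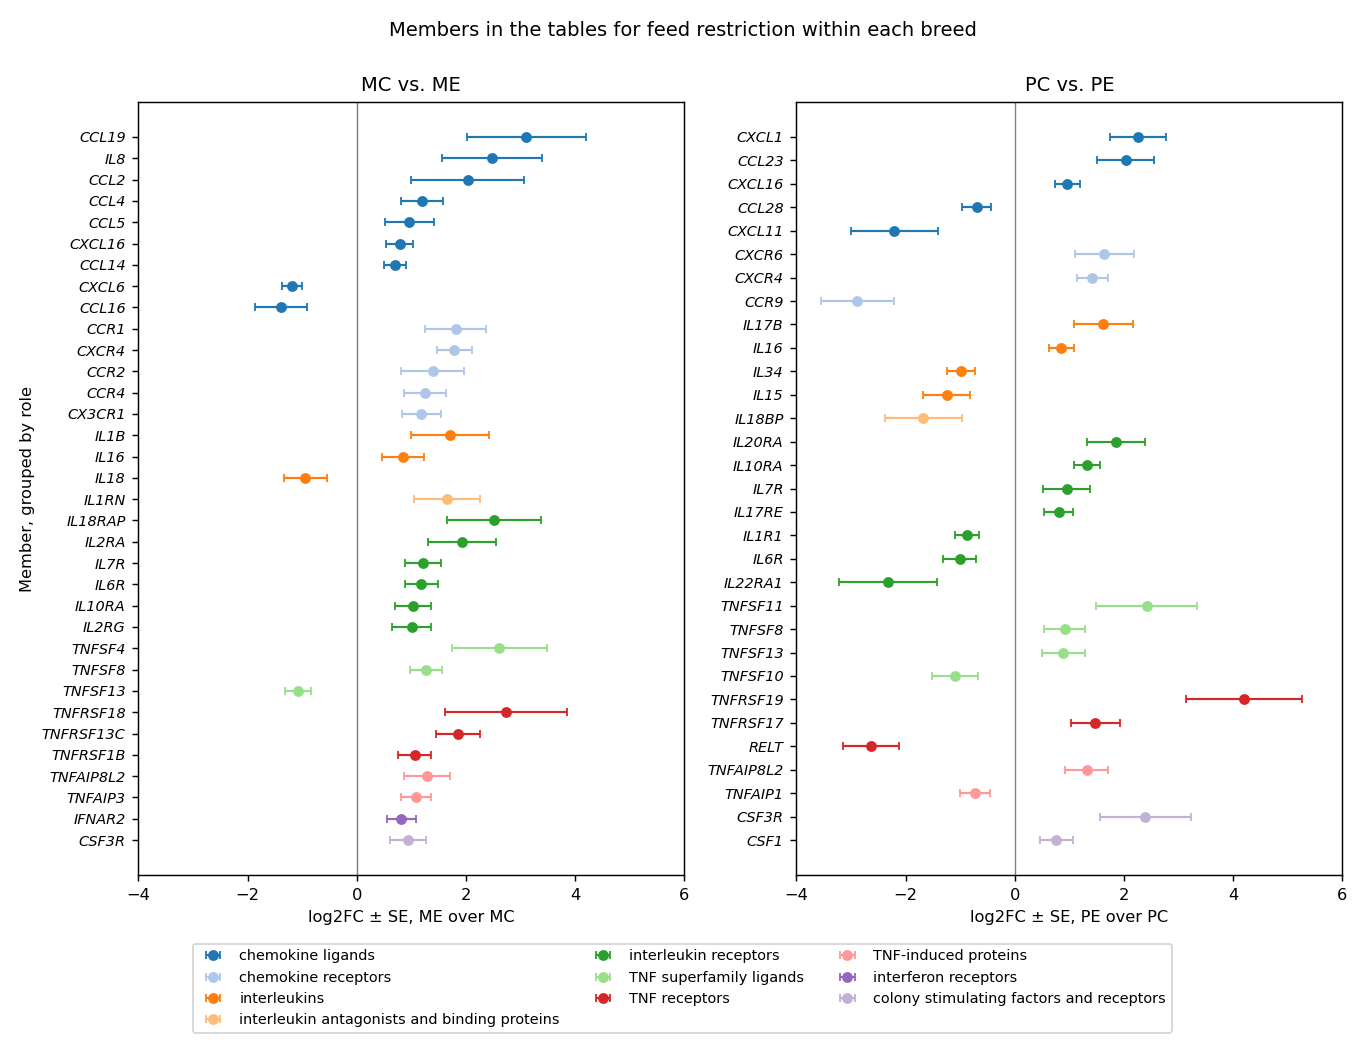
Log2FC with its SE of ME over MC (left, 34 members) and of PE over PC (right, 31 members), each point being 1 member and colours marking roles. Most points of the left panel lay above 0, and CXCR4 stood at 1.79 and 1.42, whereas IL6R and TNFSF13 lay on opposite sides of 0 in the panels.

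Under the same diet, edgeR called no member between the breeds. The MC vs. PC table held 8 members, of which 3 were higher in PC (IL6R, IL18BP and RELT, background 41.2%), and 3 of the 8 did not overlap (background 63.8%). None was called (background 0.132%), 7 had an unadjusted p below 0.05 (background 91.1%), and DESeq2 called none. In ME vs. PE, 18 of 24 members were lower in PE (6 higher, background 37.6%), with a median log2FC of -0.86 against -0.90 over all genes, and 10 did not overlap (background 54.9%). No call was made by edgeR (background 0.0%), with 14 members at an unadjusted p below 0.05 (background 73.0%), and DESeq2 called TNFSF13 (background 3.26%). The ME vs. PE values rest in part on 1 library: without ME replicate 2 the number of members higher in PE went from 6 to 9 and their median from -0.86 to -0.39. Scaling by mapped reads alone moved the median of all genes by -0.61 here.

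The last 2 tables compared groups that differed in both breed and diet. ME vs. PC held the most members, 42, and 38 of them were lower in PC (4 higher, background 41.7%), with a median of -1.24 against -0.84. In 33 the groups did not overlap (background 74.1%). The smallest unadjusted p values belonged to IL10RA, CXCR4, CCR4, CXCL16 and TNFAIP8L2, at log2FC of -1.81, -1.79, -2.16, -1.27 and -2.02. None passed adjustment in edgeR (background 0.0%; 40 members under 0.05 unadjusted, background 88.1%), and DESeq2 called 5, being IL10RA, CXCR4, CXCL16, TNFAIP8L2 and IL16 (background 9.86%), with IL10RA, CXCR4 and TNFAIP8L2 also DEG (background 5.52%). In MC vs. PE, 12 of 21 members were higher in PE (background 45.2%), 11 did not overlap (background 70.6%) and none was called (background 0.749%). There, 18 members had an unadjusted p below 0.05 (background 92.1%), and DESeq2 called CXCR4 and CSF2RB (background 10.6%). These tables share their libraries with those above and are not separate evidence.

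**Figure D4:**
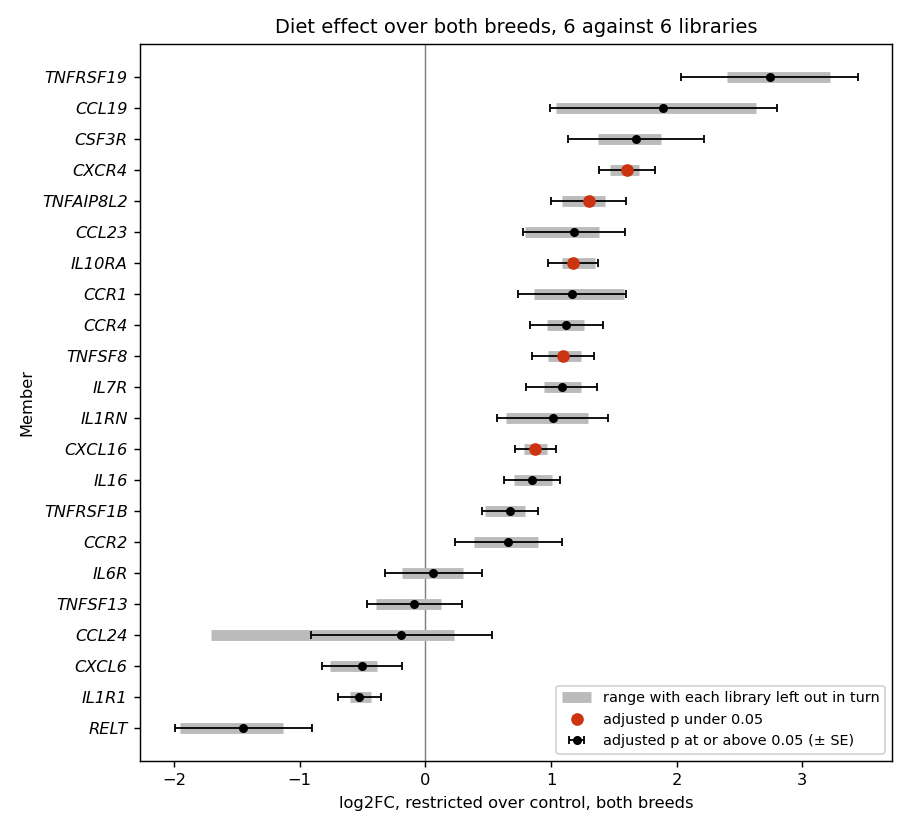
Log2FC of feed restriction over both breeds for 22 members with 12 libraries, with the SE as bars, the range with each library left out in turn as grey bands, and called members in red. The 5 called members shown all lay above 0, from CXCL16 at 0.88 to CXCR4 at 1.60.

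Tests of breed over both diets and of the interaction called no member. For breed, 7 members had an unadjusted p below 0.05, all lower in Palmera (background 22.7% in either direction, 15.5% lower), among them CCR4, IL10RA, CCL24, TNFAIP8L2, CXCL16 and IL16, with log2FC from -1.99 for CCL24 to -0.39 for CXCL16. The smallest adjusted p was 0.705, for CCR4, and the background called was 0.142%. For the interaction, 6 members had an unadjusted p below 0.05 (background 16.1%): IL6R, TNFSF13, CXCL6, RELT, CCL23 and IL1R1. None passed adjustment (background 0.071%), and DESeq2 called no member in either test (background 0.568% for the interaction, with 0.497% DEG, and 0.497% for breed).

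Beside these genes, the downstream signalling genes were sparsely present, since few had entered a table. Of the inhibitors of cytokine signalling, 3 of 17 had 12 libraries. ZFP36, which destabilises the mRNA of TNF, and NFKBIZ, an inducible regulator of NF-kappa B, rose with restriction over both breeds (log2FC 1.24 and 1.12, adjusted p = 0.0215 and 0.0342, background 30.9%). SOCS3, the feedback inhibitor of IL6 signalling, had a log2FC of 1.77 and was not called (adjusted p = 0.595). IRF8, a transcription factor of the myeloid lineage and the only 1 of 22 kinases and transcription factors with 12 libraries, had a log2FC of 1.04 (adjusted p = 0.0759 by edgeR and 0.0447 by DESeq2). No adaptor of the 15 had 12 libraries, and the 2 of 18 interferon-induced genes had a median log2FC of 0.04. Of the 42 relatives that carry other symbols, 4 had 12 libraries. Neither edgeR (background 30.9%) nor DESeq2 (background 41.5%) called any of the 4 for diet, with 3 at an unadjusted p below 0.05 (background 75.6%). In the interaction, DESeq2 called 1, LOC102182683, named growth-regulated alpha protein-like in the study (log2FC 2.54, adjusted p = 0.0276, background 0.568%). EdgeR did not call it (adjusted p = 0.474). Its mean was 4.3 CPM in MC, 3.4 CPM in ME, 2.0 CPM in PC and 9.3 CPM in PE. In PC vs. PE its log2FC was 2.20 (adjusted p = 0.0701 by edgeR and 2.3e-05 by DESeq2).

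Leukocyte markers with 12 libraries were higher in restricted goats, as were most members with 12 libraries. Such markers had entered tables by differing between groups, and only 6 of the 8 were in any table. Their sums are therefore sums of selected genes. Of single genes with 12 libraries, 18.5% did not overlap by diet. The summed level of 6 of the 8 leukocyte markers, those with 12 libraries, was 41.4 to 69.1 CPM in MC, 85.3 to 230 CPM in ME, 44.0 to 57.7 CPM in PC and 72.7 to 115 CPM in PE, without overlap by diet. All 6 had a positive diet log2FC (background 51.6%), and edgeR called LAPTM5 and PTPRC (1.21 and 0.94, adjusted p = 0.027 and 0.0483, background 30.9%), while DESeq2 called CD53 as well (background 41.5%). Macrophage markers, 6 of 16, gave 14.8 to 20.9 CPM in MC, 40.4 to 130 CPM in ME, 12.3 to 19.4 CPM in PC and 19.1 to 34.8 CPM in PE, and neutrophil markers, 5 of 12, gave 1.09 to 4.59, 4.82 to 62.6, 0.57 to 3.91 and 2.59 to 34.8 CPM, with 3 of the 5 at 0 in some library. The high neutrophil sums were single libraries, ME replicate 2 (62.6 against 4.82 and 7.24 CPM) and PE replicate 1 (34.8 against 2.59 and 7.71 CPM). PGLYRP1, a neutrophil marker without 12 libraries, was lower in ME than in MC. Its means were 4.52 and 9.88 CPM (log2FC -1.13, adjusted p = 0.258 by edgeR). The 2 of 19 T and NK cell markers spanned 3.55 to 9.61 CPM in MC, 10.4 to 18.6 CPM in ME, 4.34 to 6.10 CPM in PC and 5.67 to 12.4 CPM in PE. The 6 of 11 secretory epithelium markers gave 378500 to 522600 CPM in MC, 76300 to 285300 CPM in ME, 401500 to 624200 CPM in PC and 105400 to 393800 CPM in PE. This sum was mostly milk protein transcripts, with CSN2 alone at a mean of 325900 CPM in MC. The keratin KRT18 in the sum went the other way (diet log2FC 1.03, adjusted p = 0.151 by edgeR). Its mean was 7.0 CPM in MC, 13.7 CPM in ME, 6.87 CPM in PC and 14.6 CPM in PE. All 3 adipocyte markers with 12 libraries had a negative diet log2FC, with ADIPOQ at -3.98 (adjusted p = 0.00096 by edgeR, background 30.9%). Of 6 fibroblast markers, 5 were lower, with PI16 at -3.72, and 1 was higher, FAP at 1.41 (adjusted p = 0.00513 and 0.0215 by edgeR). Of 4 B and plasma cell markers in MC vs. ME, 3 were higher and CR2 was lower (log2FC -1.52, adjusted p = 0.160 by edgeR). ME replicate 2 had the highest leukocyte sum and the lowest epithelial sum, and it was also the highest library of 36 of the 59 members with counts in ME. Per 100 CPM of leukocyte markers, CXCR4 was 2.83 to 3.88 in the controls and 3.49 to 8.70 in the restricted goats, CXCL16 was 4.17 to 6.13 and 2.71 to 7.21, and IL10RA was 1.80 to 3.89 and 1.91 to 3.34, so that all 3 overlapped between diets over both breeds on this scale. Within Majorera, CXCR4 did not overlap (2.83 to 3.39 in MC and 3.49 to 5.23 in ME). Within Palmera, IL10RA did not overlap (1.80 to 2.07 in PC and 2.39 to 3.34 in PE). CXCR4 overlapped in Palmera, IL10RA in Majorera and CXCL16 in both breeds. The part of the leukocyte markers in the results was not tested.

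**Figure D5:**
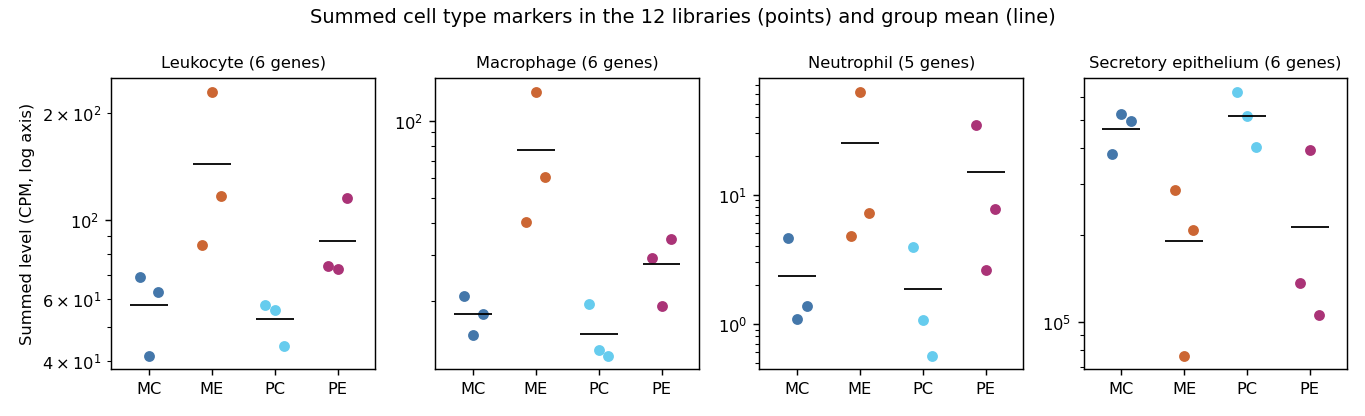
Summed CPM of the markers of leukocytes, macrophages, neutrophils and secretory epithelium in each library (points) with the group mean (lines), in CPM on a log axis. The leukocyte sum lay at 41.4 to 69.1 CPM in the controls and 72.7 to 230 CPM in the restricted goats. The epithelial sum, mostly milk protein transcripts, was lowest in ME replicate 2.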

How the data were processed

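Total RNA of 12 mammary biopsies, 3 goats in each of 4 groups, was sequenced as stranded poly(A) libraries with paired ends. The authors used Bowtie2 2.2.3 for alignment (genome CHIR_1.0) and RSEM 1.2.17 for expected counts per gene, and compared groups in edgeR 3.2.4. The deposited expected counts were not normalised, and each of the 6 tables held only genes with an unadjusted p below 0.05. The deposited p-value and FDR columns were used only to derive how many genes the authors tested (14469 to 15221), and their fold changes, enrichment sheets and other comparison columns were not used. No column was without a sample (0 columns).

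Expected counts were rounded to whole numbers. Because the tables hold selected genes, the dispersion trend and TMM factors came from 1998 readable rows of the study's supplementary raw counts, 846 of them at 1 CPM or more in 3 libraries. Library size was the study's mapped reads times the TMM factor. Tests were two-sided quasi-likelihood tests in edgeR 4.0.16 (limma 3.58.1, R 4.3.3), with Benjamini-Hochberg adjustment over all genes in the authors' own test of the pair (15221 for the tests over 12 libraries). DESeq2 1.42.0, other scalings, a minimum of 10 counts in 3 libraries, a replicate block and leaving out each library were alternatives. Tables and figures were made in Python 3.11.15 with pandas 2.3.3, numpy 2.4.6 and matplotlib 3.10.9. The fit was tested on simulated data. An exact permutation of 3 against 3 libraries cannot go below p = 0.1, so single genes were tested in the fit across all genes. The p-values measure the spread between goats.

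Genes named with values were CXCR4, IL6R, TNFSF13 and RELT, the members with 12 libraries, the 8 members with the smallest p in each pair of groups and the 6 in each test over 12 libraries. Others named with values were chosen after their values were seen. The members and lists were chosen with earlier results of these data known. 2 symbols are not reported here, 1 of which is counted among the members and in the fits but left out of the text and figures.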

Additional observations from a re-analysis of the deposited data

Results flagged for a closer look

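The response of TNFSF13 to feed restriction took opposite directions in the 2 breeds. After TMM scaling, every ME library (3.93 to 6.02 CPM) lay below every MC library (8.09 to 13.2 CPM). In Palmera, every PE library (11.2 to 13.0 CPM) lay above every PC library (2.39 to 9.38 CPM). The TMM factor was 2.00 in ME replicate 2 and 0.76 to 0.82 in MC. By mapped reads alone, ME replicate 2 lay above MC replicate 1 and PE replicate 2 below PC replicate 2, so both breeds overlapped. The difference between the responses was 1.96 on the log2 scale (SE 0.52), and it did not pass adjustment by edgeR (adjusted p = 1.000) or by DESeq2 (adjusted p = 0.575).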

How the results depend on the processing

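The study's own edgeR test listed CXCR4, IL6R and RELT as differentially expressed. In the new fit, the pairs of groups gave no member DEG in edgeR. With the DESeq2 test there was 1 in MC vs. ME (CXCR4), 2 in PC vs. PE (RELT and CCL23) and 3 in ME vs. PC (TNFAIP8L2, IL10RA and CXCR4). Scaling by mapped reads alone gave 11 of 35 in MC vs. ME (15.5% of all genes under this scaling), 5 of 32 in PC vs. PE (7.25%), 5 of 24 in ME vs. PE (18.4%), 3 of 21 in MC vs. PE (8.67%), 22 of 42 in ME vs. PC (29.1%), 1 of 23 for the interaction (IL6R, 0.284%) and 9 of 23 for the diet effect (20.8%), against 1 as reported, and 6 members passed on the adjusted p alone. The cause was not tested. Leaving out 1 library gave 0 to 2 DEG in PC vs. PE (2 without PE replicate 2), 0 to 2 in MC vs. PE (2, CCL23 and CSF3R, without PE replicate 2 and 1, IL18, without MC replicate 3) and 0 to 2 for diet (0 without MC replicate 2 or ME replicate 2, 2 without ME replicate 1 or PE replicate 2). Replicate numbers did not pair the samples, since the correlation of deviations ran from -0.319 to 0.229 and no comparison had every pair above 0.1. With the replicate block there were 3 DEG in PC vs. PE (CCL23, CSF3R and RELT, 2.79% of all genes) and 1 in ME vs. PC (CXCR4, 2.06%), and 4 of the 6 diet calls by adjusted p remained (CXCL16, CXCR4, IL10RA and TNFSF8). Of 231 log2FC of members, 18 turned sign with 1 library left out, and 5 of these had an absolute log2FC above 1, all turning without ME replicate 2: CCL2 in MC vs. ME and ME vs. PE, CCL24 and TNFRSF6B in ME vs. PE, and CCL24 in the interaction (-1.11 to 1.79). The diet effect of CCL24 was 0.39 and of TNFSF13 0.29 with mapped reads alone, and the log2FC of IL18 in MC vs. ME was then 0.0025. With 1 library left out, the diet effect ran from -1.71 to 0.23 for CCL24, -0.39 to 0.13 for TNFSF13 and -0.19 to 0.30 for IL6R, and the breed effect of RELT from -0.50 to 0.29. Of 114 log2FC of named members, 96 kept sign and side of the threshold with DESeq2 and 18 passed it newly, and all 114 kept both with DESeq2 size factors. Depth limits the 28 members that stayed at or under 100 counts in every library.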
